A study of Mus musculus with 6 samples.

Results

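The Frizzled genes encode the serpentine receptors that bind Wnt ligands at the cell surface. They were followed here in the mesenchyme and the urothelium of the embryonic mouse bladder. The family has 10 members, Fzd1 to Fzd10, and a probe set was assigned to it where the platform annotation gave it a single gene symbol and that symbol was one of these. All 10 were measured, by 26 probe sets, among 18193 genes in all. Bladders of wild-type FVB/N embryos at embryonic day 13 (Theiler stage 21, sex not known) were freed by microdissection above the ureters and kept for 20 minutes in 20 µM EDTA. This chelator loosens epithelium from the tissue around it, and a needle was then used to part the compartments. RNA from 3 mesenchyme samples (replicates 1, 2 and 4) and 3 urothelium samples (replicates 5, 7 and 8) was amplified in 2 rounds and hybridised to Affymetrix MOE430 arrays. The labels say that samples were not pooled but not that they came from separate embryos or litters, so p-values measure the spread between these arrays, which may be technical.

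A Frizzled receptor binds a Wnt protein through a cysteine-rich domain outside the cell, and with the co-receptor Lrp5 or Lrp6 it recruits Dishevelled and stabilises beta-catenin. With other partners, such as Ror2 or the planar cell polarity proteins, it acts on the cytoskeleton without beta-catenin. By protein sequence the mammalian receptors are grouped as Fzd1, Fzd2 and Fzd7, as Fzd3 and Fzd6, as Fzd5 and Fzd8, and as Fzd4, Fzd9 and Fzd10. In the developing bladder the mesenchyme gives rise to smooth muscle and connective tissue, and Wnt ligands are made on both sides of the basement membrane.

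The arrays matched their labels. All 12 epithelial markers (among them Cdh1, Krt8 and Trp63) were higher in urothelium and all 12 fibroblast and mesenchyme markers (among them Col1a1 and Cdh11) were higher in mesenchyme. The summed signal of the epithelial list was 9825 to 13086 on mesenchyme arrays, against 425111 to 487783 on urothelium arrays, and on average the mesenchyme arrays held 2.61% of the urothelium level. The fibroblast list summed to 326072 to 418677 on mesenchyme arrays, against 15409 to 17926 on urothelium arrays, which held 4.46% of the mesenchyme level. Mesenchyme 1 and urothelium 5 stood apart in the 3' to 5' ratio of beta-actin signal, with 8.40 and 8.60, against 2.29 to 4.89 on the other arrays. This ratio was the only measure of RNA quality used here, and all RNA had been amplified in 2 rounds. Mesenchyme 1 and urothelium 5 lie in different compartments. The results for the Frizzled genes are given without these arrays where a call or a count changed.

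The family was split between the compartments. Fzd1, Fzd4 and Fzd10 were higher in mesenchyme and Fzd5 and Fzd6 were higher in urothelium, while the other 5 members did not pass the test. Throughout, a difference is mesenchyme minus urothelium on the log2(signal + 45) scale, and 45 marks the 25th percentile of the deposited values. This scale understates the differences of dim genes. The test is limma's moderated test, and genes with a Benjamini-Hochberg adjusted p under 0.05 over all genes passed. Over all genes 14.7% passed, 8.99% towards mesenchyme and 5.75% towards urothelium. The signals of mesenchyme and urothelium did not overlap for 9 of the 10 members, 5 of them higher in mesenchyme and 4 in urothelium, where 30.2% of all genes had no overlap, 18.2% with mesenchyme higher and 12.0% with urothelium higher. The median difference of the members was 0.53, against 0.11 over all genes.

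**Figure D1:**
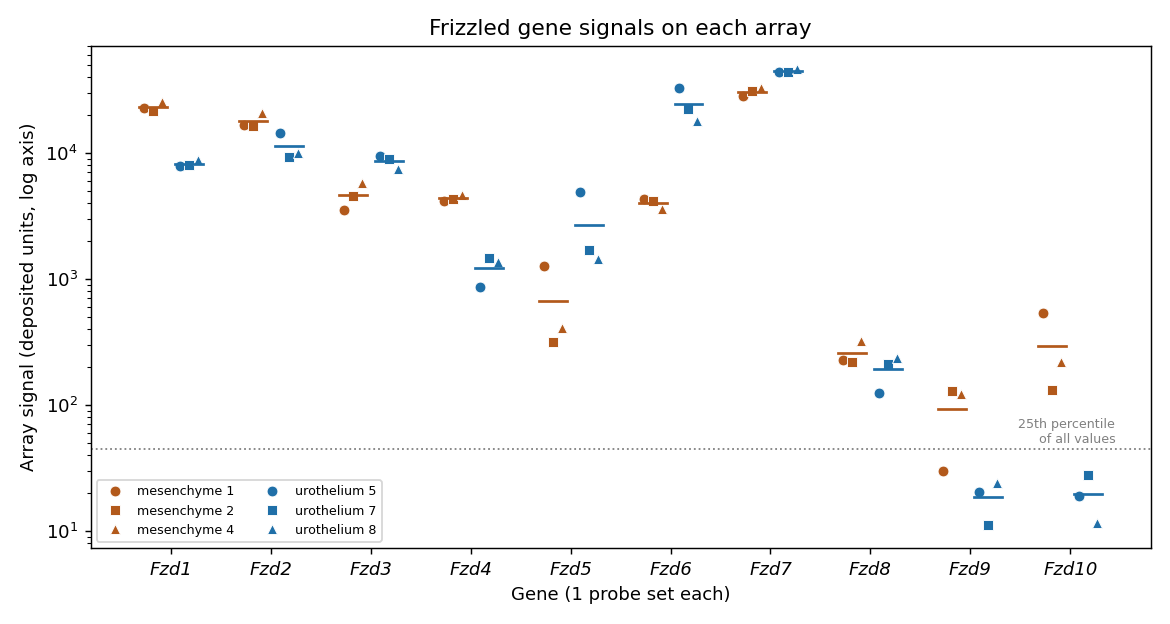
Array signal in the deposited units (log axis) of the probe set used for each Frizzled gene, with mesenchyme arrays on the left of each pair and urothelium arrays on the right. Each point is 1 array and each bar is the mean of 3. The points of a pair overlap only for Fzd8. Heights of different genes come from different probes and are not comparable.

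**Figure D2:**
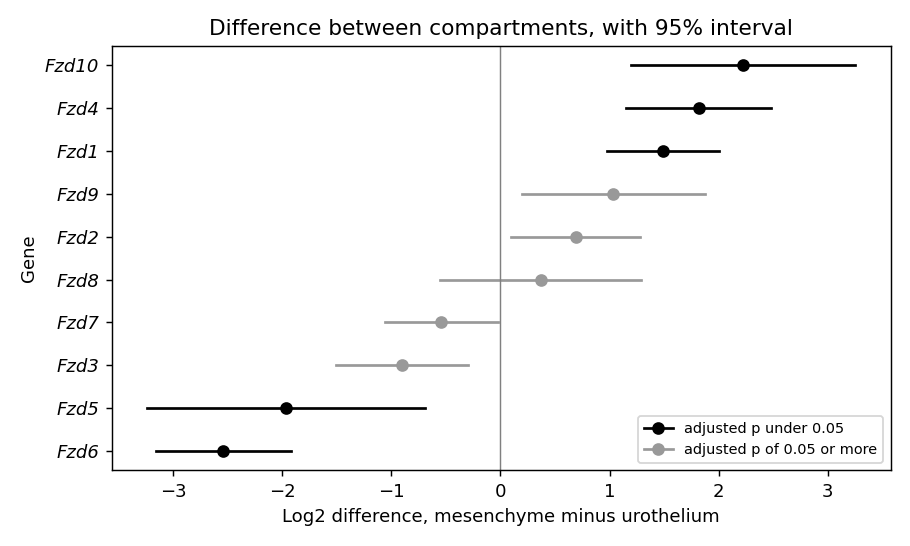
Log2 difference, mesenchyme minus urothelium, of the 10 Frizzled genes with its 95% interval from limma. Black marks the genes with an adjusted p under 0.05. Fzd10, Fzd4 and Fzd1 lie at the mesenchyme end (2.23, 1.82 and 1.49) and Fzd6 and Fzd5 at the urothelium end (−2.54 and −1.96).

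The stretches of 250 bases before the RefSeq start of 4 of the 5 genes past the test are printed here to set side by side the promoters of receptors that were higher in mesenchyme (Fzd1, Fzd4 and Fzd10) and in urothelium (Fzd5). The RefSeq promoter table (GRCm38.p6) matched 6 of the 10 members, and Fzd6 was not among them. The urothelium side is thus Fzd5 alone, whose call was lost under 8 of 16 alternatives. Each stretch is written 5′ to 3′ on the strand of its gene, and capitals mark any of 5 short motifs on either strand. The motifs are the TATA box TATAAA, the GC box GGGCGG, the CCAAT box CCAAT, the E-box CACCTG that Snai and Zeb factors recognise, and the Tcf/Lef core CTTTGA. Copies that overlap run together.
Fzd1 (chr5:4758217-4758466, minus strand): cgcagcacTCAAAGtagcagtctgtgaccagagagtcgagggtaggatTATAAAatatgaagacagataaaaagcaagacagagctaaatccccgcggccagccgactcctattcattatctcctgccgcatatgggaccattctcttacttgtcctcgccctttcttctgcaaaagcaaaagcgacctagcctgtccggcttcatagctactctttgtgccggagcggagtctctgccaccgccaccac
Fzd4 (chr7:89404116-89404365, plus strand): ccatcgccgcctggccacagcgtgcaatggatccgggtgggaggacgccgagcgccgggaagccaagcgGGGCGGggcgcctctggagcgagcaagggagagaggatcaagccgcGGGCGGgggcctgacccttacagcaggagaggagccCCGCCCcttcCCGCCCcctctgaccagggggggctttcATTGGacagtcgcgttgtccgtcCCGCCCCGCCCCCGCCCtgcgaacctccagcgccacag
Fzd10 (chr5:128600856-128601105, plus strand): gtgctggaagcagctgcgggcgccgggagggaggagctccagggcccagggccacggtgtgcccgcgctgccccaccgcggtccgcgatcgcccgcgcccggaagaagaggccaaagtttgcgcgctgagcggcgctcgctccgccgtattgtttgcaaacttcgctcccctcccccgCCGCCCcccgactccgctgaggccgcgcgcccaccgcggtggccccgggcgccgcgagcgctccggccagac
Fzd5 (chr1:64737751-64738000, minus strand): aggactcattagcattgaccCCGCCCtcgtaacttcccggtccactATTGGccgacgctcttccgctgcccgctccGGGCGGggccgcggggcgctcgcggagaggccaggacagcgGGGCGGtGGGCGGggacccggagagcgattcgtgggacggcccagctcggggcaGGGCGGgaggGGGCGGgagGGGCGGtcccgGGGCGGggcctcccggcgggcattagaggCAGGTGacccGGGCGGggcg

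The GC box was found 7 times before Fzd4, 9 times before Fzd5 and 6 times before Fzd7, which did not pass the test. Fzd9 and Fzd10 had 1 GC box each and Fzd1 had none. At least 1 GC box was found in 32.7% of all 32851 windows of the same length. Fzd1 was the only one of the 6 matched members with a TATA box, which 12.4% of windows held, and with a Tcf/Lef core, which 13.8% held. The E-box was found once, before Fzd5, and in 17.2% of all windows. The GC content was 51.2% before Fzd1, 72.8% before Fzd4 and 76.4% before each of Fzd5, Fzd9 and Fzd10, and 65.2% before Fzd7, against a median of 52.4% over all windows. No motif of the 5 was common to the windows of Fzd1, Fzd4 and Fzd10. A match in these letters is a description and not a binding site.

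Fzd1, which belongs with Fzd2 and Fzd7 and can signal through beta-catenin, had signals of 22599, 21404 and 25358 on mesenchyme 1, 2 and 4, against 7799, 8033 and 8713 on urothelium 5, 7 and 8. Every mesenchyme array was above every urothelium array, and the spread within each compartment was small. The mean was 23121 ± 2028 in mesenchyme and 8182 ± 475 in urothelium (SD, n = 3 each), a log2 difference of 1.49 ± 0.23 (SE) or 2.81-fold, with a limma adjusted p of 0.00121. Its other, dimmer probe set had signals of 553, 881 and 440 in mesenchyme, against 145, 216 and 232 in urothelium, with a difference of 1.43 ± 0.44 that did not pass when every probe set was fitted by itself (adjusted p = 0.0750). In urothelium Fzd1 kept 35.4% of its mesenchymal signal, where the fibroblast marker list kept 4.46%.

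Fzd2, which acts with Fzd1 in closure of the mouse palate, gave 16608, 16328 and 20749 in mesenchyme, against 14470, 9309 and 9922 in urothelium. The compartments did not overlap, but urothelium 5 came close to the mesenchyme arrays. The difference of 0.69 ± 0.27 did not pass (limma adjusted p = 0.126), with a 95% interval of 0.10 to 1.28. The gene's other probe sets showed differences of 1.40 ± 0.43 and 1.33 ± 0.39, and neither passed by itself. Fzd2 passed in the mean of its probe sets (1.14, adjusted p = 0.0216), after quantile normalization (0.79), with array weights (0.88) and without mesenchyme 1 and urothelium 5 (0.93).

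Fzd7, a receptor used in gastrulation movements and by epithelial stem cells of the gut, had a difference of the opposite sign to those of its relatives. Its signals were 28049, 31116 and 32539 in mesenchyme, against 43323, 43675 and 46351 in urothelium. The compartments did not overlap, yet the difference of −0.54 ± 0.23, or 1.46-fold, did not pass (limma adjusted p = 0.179). It passed with array weights (−0.48, adjusted p = 0.0471) and was −0.08 in the mean of its probe sets. The other probe set of Fzd7 was dim, at 50.7, 149 and 102 in mesenchyme, against 4.38, 51.4 and 217 in urothelium, and its value of 0.38 ± 0.59 leaned the opposite way. Within arrays, the difference of Fzd1 exceeded that of Fzd7 by 2.03 on the log2 scale and that of Fzd2 exceeded that of Fzd7 by 1.23. Over 8 pairs of relatives compared in this way, 5 had no overlap between compartments, each with a two-sided exact permutation p of 0.1 (0.16 adjusted over the 8 pairs). That is the smallest p that 3 arrays against 3 allow, so no pair could pass. Several pairs share a gene and are not separate observations, and the share of pairs without overlap over all genes was not computed.

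Fzd6, a receptor of planar cell polarity known for the patterning of hair, was higher in urothelium. It gave 4266, 4164 and 3601 in mesenchyme, against 32425, 22423 and 17816 in urothelium. The lowest urothelium array lay far above the highest mesenchyme array. The mean was 4010 ± 358 in mesenchyme and 24221 ± 7469 in urothelium (SD, n = 3 each), a log2 difference of −2.54 ± 0.28 or 5.82-fold (limma adjusted p = 0.000113). Mesenchyme kept 16.6% of the urothelial signal, where the epithelial marker list kept 2.61%. The other probe sets were dim and pointed the same way, at −1.48 ± 0.44 and −0.91 ± 0.58, and neither passed by itself. The Fzd6 call held under all 16 alternatives, with differences between −2.93 and −1.65.

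Fzd3, the relative of Fzd6 that guides axons and works with it in neural tube closure, had 3546, 4578 and 5806 in mesenchyme, against 9448, 8950 and 7376 in urothelium. The compartments did not overlap. The difference of −0.90 ± 0.27 lay at the threshold (limma adjusted p = 0.0506). It passed with genes above the median signal only, with array weights, with a pseudocount of 179 and after quantile normalization or median centring, but not without mesenchyme 1 and urothelium 5 (−0.65, adjusted p = 0.110). The 5 other probe sets of Fzd3 had differences of −0.54, −0.45, 0.29, −0.28 and −0.15, and each had a 95% interval that included 0. The mean of all its probe sets was −0.34 (adjusted p = 0.460).

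Fzd5, which is needed for the vessels of the mouse yolk sac and placenta and acts in the maturation of intestinal Paneth cells, gave 1273, 316 and 406 in mesenchyme, against 4877, 1697 and 1434 in urothelium. The compartments did not overlap, but mesenchyme 1 came close to urothelium 8, and in both compartments the array with the high beta-actin ratio was the brightest (mesenchyme 1 and urothelium 5). The part of RNA quality in these levels was not tested. The mean was 665 ± 529 in mesenchyme and 2669 ± 1916 in urothelium (SD, n = 3 each), a log2 difference of −1.96 ± 0.58 or 3.90-fold (limma adjusted p = 0.0439). Without both of these arrays the difference was as large, at −1.99 (adjusted p = 0.00604). The call was lost without mesenchyme 2 (−1.60), mesenchyme 4 (−1.76), urothelium 5 (−1.42) or urothelium 7 (−2.17), after quantile normalization (−1.99), with a pseudocount of 179 (−1.73), without the intensity trend and when every probe set was fitted by itself. The other Fzd5 probe set was dim, at 23.4 to 120 in mesenchyme, against 42.2 to 244 in urothelium, and did not pass (−0.75 ± 0.53).

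Fzd8, the relative of Fzd5 that acts in branching of the mouse kidney, was the only member whose compartments overlapped. Its signals were 229, 220 and 320 in mesenchyme, against 125, 213 and 236 in urothelium, a difference of 0.37 ± 0.42 (limma adjusted p = 0.666). The 95% interval ran from −0.55 to 1.29. Its other probe set gave 0.48 ± 0.42. The sign of Fzd8 turned when arrays were centred on their medians (−0.021).

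Fzd4, the receptor for Norrin as well as for Wnts and known for its part in vessels of the retina, had 4121, 4330 and 4583 in mesenchyme, against 865, 1458 and 1363 in urothelium. The compartments were far apart and the mesenchyme arrays lay close together. The mean was 4345 ± 231 in mesenchyme and 1229 ± 319 in urothelium (SD, n = 3 each), a log2 difference of 1.82 ± 0.30 or 3.53-fold (limma adjusted p = 0.00172). A second probe set gave 1300, 558 and 559 in mesenchyme, against 189, 195 and 306 in urothelium (1.54 ± 0.46), and a dim one showed 0.34 ± 0.36. Neither passed by itself.

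Markers of several cell types were higher in mesenchyme, as Fzd1, Fzd4 and Fzd10 were. Of the endothelial markers all 10 of 10, among them Cdh5, Kdr and Pecam1, were higher in mesenchyme, and the list summed to 20026 to 25435 on mesenchyme arrays, against 1490 to 2384 on urothelium arrays. Of the other lists, 7 of 8 smooth muscle, 5 of 8 macrophage and 3 of 5 measured red cell markers passed towards mesenchyme. Without mesenchyme 1 and urothelium 5 together these counts were 7, 6 and 2. Over all genes and arrays 8.99% passed towards mesenchyme and 5.75% towards urothelium. The remaining lists were mixed. Of 8 measured markers of neural crest, glia and neurons, 2 passed towards mesenchyme and 2 towards urothelium. Without mesenchyme 1 and urothelium 5 together, 0 passed towards mesenchyme and 2 towards urothelium. Of 4 mesothelial markers, 2 passed towards mesenchyme and 1 towards urothelium. The smooth muscle list summed to 70776 to 97297 on mesenchyme arrays, against 3287 to 3896 on urothelium arrays, and the macrophage list to 9371 to 14911 in mesenchyme, against 1322 to 1613 in urothelium. The red cell list summed to 68367 to 85925 in mesenchyme, against 56738 to 103405 in urothelium, which overlapped. Urothelium kept 8.91% of the summed endothelial signal, 4.30% of the smooth muscle signal and 11.8% of the macrophage signal, beside 35.4% of the Fzd1 signal, 28.3% of the Fzd4 signal and 6.60% of the Fzd10 signal. The part of these cell types in the differences of Fzd1, Fzd4 and Fzd10 was not tested. In such bulk samples fewer cells of a type and less RNA per cell cannot be told apart.

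Fzd10, whose protein is known as a surface antigen of human synovial sarcoma, was dim but differed clearly. Its signals were 536, 131 and 219 in mesenchyme, against 19.1, 27.9 and 11.5 in urothelium. All urothelium arrays were below 45 and all mesenchyme arrays above it, and mesenchyme 1 was the brightest. The difference was 2.23 ± 0.46 (limma adjusted p = 0.00745). Its size depended on the pseudocount, with 3.69 at a pseudocount of 1 and 1.17 at 179. It was 1.24 in the mean of its probe sets and 1.75 without mesenchyme 1 and urothelium 5 (adjusted p = 0.0157). The other Fzd10 probe set was below 45 on all arrays and showed 0.25 ± 0.22.

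Fzd9, known for roles in the hippocampus and in bone formation, had a single probe set with 29.9, 129 and 122 in mesenchyme, against 20.6, 11.1 and 24.0 in urothelium. The compartments did not overlap, though mesenchyme 1 was near the urothelium level. The difference of 1.03 ± 0.38 did not pass (limma adjusted p = 0.106). It passed without mesenchyme 1 (1.43, adjusted p = 0.00912), without mesenchyme 1 and urothelium 5 (1.45) and with array weights (1.45). Fzd4, Fzd9 and Fzd10, which are related in sequence, were thus each higher in every mesenchyme array than in any urothelium array. Of these Fzd9 did not pass. Among all genes 18.2% had no overlap with mesenchyme higher. For Fzd9 only mesenchyme 2 and 4 were above 45, the value added to each signal. Its separation rested on dim signals, 29.9 on mesenchyme 1 against 24.0 on urothelium 8.

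Taking the probe sets one by one, 3 of 26 passed towards mesenchyme (Fzd1, Fzd4 and Fzd10) and 1 towards urothelium (Fzd6), where 9.41% of all 34945 probe sets passed. No Frizzled gene had more than 1 probe set that passed, so passing probe sets of a gene could not differ in direction. Fzd1, Fzd4 and Fzd6 passed under all 16 alternatives and Fzd10 under the 15 that could be computed for it. The count of members higher in mesenchyme was 3, and 5 without mesenchyme 1 and urothelium 5, where Fzd2 and Fzd9 also passed and 16.4% of all genes passed. The count in urothelium was 2, and 1 without mesenchyme 2, mesenchyme 4, urothelium 5 or urothelium 7, where Fzd5 was lost.

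**Figure D3:**
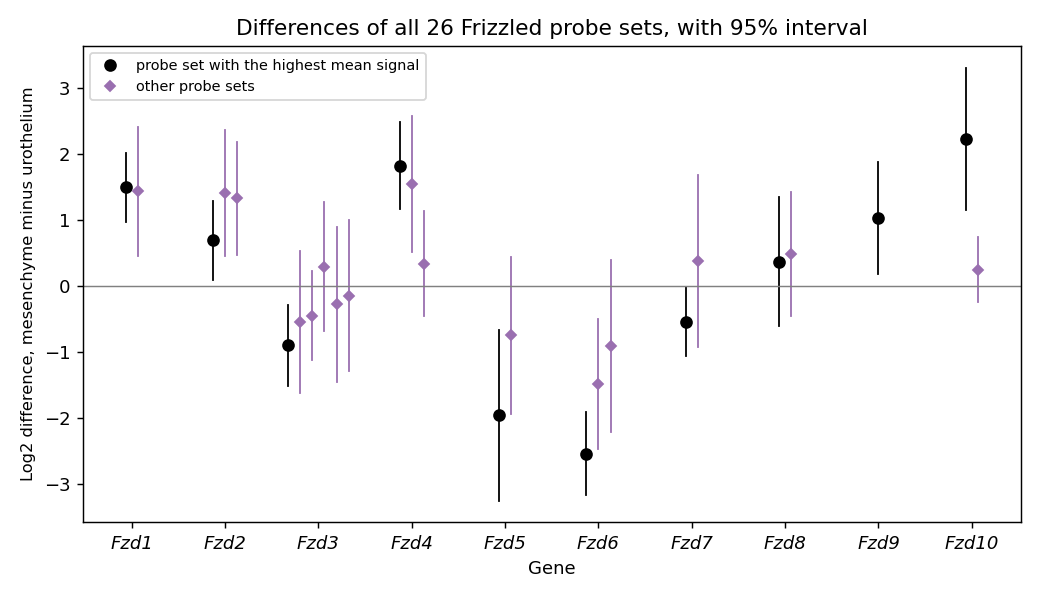
Log2 difference, mesenchyme minus urothelium, of every Frizzled probe set when fitted by itself, with 95% intervals. Black circles are the probe sets used for each gene and diamonds the others, in order of falling mean signal. The probe sets of a gene lie on the same side of 0, except for 1 of Fzd3 and 1 of Fzd7.

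Scaling affected the balance between compartments. Over all genes 61.0% of calls were towards mesenchyme (1636 against 1047), but 41.2% with arrays centred on their medians (1198 against 1708), which shifted the median gene by −0.39. Relative to the median gene, the differences under both scalings were 1.38 for Fzd1, 1.71 for Fzd4, 2.12 for Fzd10, −2.07 for Fzd5 and −2.65 for Fzd6. On the same footing Fzd2 stood at 0.58, Fzd9 at 0.92, Fzd8 at 0.26, Fzd7 at −0.65 and Fzd3 at −1.01. Centring moves every gene by the same amount, so these values are equal under both scalings by construction.

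The partners of the receptors were described in 8 lists with 81 different measured genes. Of these 23 were higher in mesenchyme and 10 in urothelium, which is 40.7%, against 14.7% of all genes. The lists were chosen with earlier results of these data known, so the distance between these shares is not a test. Without mesenchyme 1 and urothelium 5 together, the counts in mesenchyme and urothelium were 1 and 2 for the co-receptors, 4 and 3 for the regulators of surface level, 4 and 0 for the proteins with a Frizzled-type domain and 3 and 1 for Norrin and the Fzd4 partners. They were 2 and 4 for the transducers and 2 and 1 for the polarity partners. Genes outside the naming rule (at most 3 per list, those that passed with the largest differences) that are named in the following were chosen after their values were seen.

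Of 8 co-receptors and alternative Wnt receptors, 1 was higher in mesenchyme and 2 in urothelium (median 0.03). The receptor tyrosine kinases Ror1 and Ror2, which carry a Frizzled-type cysteine-rich domain, lay on opposite sides. Ror1 had 20849, 9353 and 10407 in mesenchyme, against 1127, 751 and 1442 in urothelium (3.51 ± 0.37, limma adjusted p = 8.26e-05), and Ror2 had 2403, 2118 and 2310 in mesenchyme, against 9326, 7063 and 8277 in urothelium (−1.82 ± 0.25, adjusted p = 0.000568). The Ror2 call was lost in the mean of its probe sets. Lrp5 was very dim, at 8.38 or less in mesenchyme, against 45.1 to 81.4 in urothelium (−0.96 ± 0.27), and its call was lost without mesenchyme 2, mesenchyme 4, urothelium 5, urothelium 7 or urothelium 8, at a pseudocount of 179 and with no intensity trend. Lrp6 gave 8663, 8561 and 7264 in mesenchyme, against 16289, 9714 and 8152 in urothelium, which overlapped (−0.42 ± 0.30, adjusted p = 0.451).

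Genes that set how much Frizzled stands at the surface were also divided. Of 11 measured, 4 were higher in mesenchyme and 2 in urothelium (median −0.01). The ubiquitin ligase Znrf3, which removes Frizzled receptors, had 1394, 901 and 1649 in mesenchyme, against 3464, 3028 and 3935 in urothelium (−1.41 ± 0.32, limma adjusted p = 0.0114), and was not past the test without mesenchyme 2 (−1.17). Of the 4 measured R-spondins, the secreted proteins that clear Znrf3 and Rnf43 from the surface, 3 were higher in mesenchyme. Rspo2 differed by 4.82 ± 0.55 and Rspo3 by 3.21 ± 0.48, and the dim Rspo1 by 1.56 ± 0.35. The Rspo1 call was lost without urothelium 7 and with median centring. Rspo4 was dim and overlapped, at 23.7, 22.8 and 26.6 in mesenchyme, against 12.2, 52.5 and 15.8 in urothelium (limma adjusted p = 0.993). Members of the Shisa family, first described in Xenopus as holding Frizzled back in the endoplasmic reticulum, were split, with Shisa3 at 2.45 ± 0.44 and Shisa2 at −1.77 ± 0.39.

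The list of secreted and membrane proteins with a Frizzled-type cysteine-rich domain held 9 measured genes that are not Frizzled receptors. Of these 4 were higher in mesenchyme and 0 in urothelium (median 1.02). Limma gave 0 towards urothelium also at an unadjusted p under 0.05. Ror1 and Ror2 carry such a domain too but were counted with the co-receptors, and Ror2 passed towards urothelium. The 0 thus holds for this list and not for all proteins with the domain. Sfrp1, a secreted Wnt binder, differed by 4.34 ± 0.30, Frzb by 3.10 ± 0.49, the carboxypeptidase Cpz by 2.55 ± 0.45 and Sfrp2 by 1.15 ± 0.31. The Sfrp2 call was lost without mesenchyme 2, mesenchyme 4, urothelium 5, urothelium 7 or urothelium 8, with median centring and with no intensity trend. Smo, the class F receptor of hedgehog signalling, had 22529, 15498 and 14775 in mesenchyme, against 10020, 8877 and 10110 in urothelium, without overlap but not past the test (0.84 ± 0.26, adjusted p = 0.0550).

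The genes of Norrin and the partners of Fzd4 all differed. Of 5 measured, 3 were higher in mesenchyme and 2 in urothelium (median 2.71). Ndp, the gene of Norrin, had 1921, 1057 and 1357 in mesenchyme, against 117, 223 and 206 in urothelium (2.71 ± 0.41, limma adjusted p = 0.00105). Adgra2 and Reck, which pair at the surface of brain endothelium to present Wnt7 to Frizzled, differed by 4.90 ± 0.36 and 3.09 ± 0.29. Tspan12, the tetraspanin that helps Norrin act through Fzd4, was on the other side, with 191, 340 and 315 in mesenchyme, against 1186, 607 and 1462 in urothelium (−1.74 ± 0.44). Its call was lost without mesenchyme 1, mesenchyme 4, urothelium 5 or urothelium 8, and without mesenchyme 1 and urothelium 5 together. The other member towards urothelium was Lrp5, described above.

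Inside the cell, 2 of 13 transducers were higher in mesenchyme and 3 in urothelium (median −0.36). Gipc2, a PDZ-domain protein, had 396, 272 and 226 in mesenchyme, against 20068, 8797 and 7921 in urothelium, a difference of −5.06 ± 0.40 (limma adjusted p = 1.39e-05). The formins that bind Dishevelled were split, with Daam2 at 2.19 ± 0.52 and Daam1 at −1.10 ± 0.24. Daam2 was not past the test without urothelium 7, nor Daam1 without mesenchyme 4. Csnk1g1, a kinase that phosphorylates Lrp6, stood at −1.56 ± 0.34 and the endocytic adaptor Dab2 at 1.49 ± 0.30. In the mean of their probe sets neither of these passed, nor did Daam1, and Dab2 also failed with median centring. None of Dvl1, Dvl2 and Dvl3 passed, with limma adjusted p of 0.521, 0.165 and 0.620. Dvl1 ranged from 1839 on mesenchyme 1 to 13864 on urothelium 7. Dvl2 had no overlap, at 1026, 1037 and 791 in mesenchyme, against 436, 410 and 665 in urothelium, and passed with array weights. Dvl3 was dim and lay below 45 on every array but mesenchyme 1 (73.8).

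Of 9 partners in planar cell polarity 2 were higher in mesenchyme, Prickle2 (3.41 ± 0.32) and Prickle1 (1.01 ± 0.26), and the median was −0.14. The Prickle1 call was lost without mesenchyme 2, mesenchyme 4, urothelium 7 or urothelium 8, with median centring, and when its probe sets were averaged. Towards urothelium 0 passed limma's test, and 0 had an unadjusted p under 0.05. Vangl1, named after its values were seen, passed without urothelium 5 (−1.24, limma adjusted p = 0.0319), against −0.54 with all 6 arrays. Vangl2, which acts with Fzd3 and Fzd6 in this pathway, had 3470, 3341 and 3464 in mesenchyme, against 5342, 3562 and 2848 in urothelium (−0.14 ± 0.29).

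Of 19 Wnt ligands 4 were higher in mesenchyme and 2 in urothelium (median 0.30), and 4 and 5 without mesenchyme 1 and urothelium 5. Without mesenchyme 1 alone, or urothelium 5 alone, the count in urothelium was 3. Wnt2 differed by 5.28 ± 0.30, Wnt5a by 3.64 ± 0.39 and Wnt4 by −3.63 ± 0.50. The others past the test were Wnt5b (2.60), Wnt9a (2.55) and Wnt10a (−2.80). Of 11 measured feedback targets of beta-catenin 3 were higher in mesenchyme and 1 in urothelium (median 0.17). They were Lef1 (3.17 ± 0.57), Nkd1 (2.32 ± 0.52) and Apcdd1 (1.65 ± 0.39), and Znrf3 in urothelium. Nkd1 also failed in the mean of its probe sets. The count in mesenchyme was 1 without mesenchyme 4, and 2 without mesenchyme 2, urothelium 7 or both mesenchyme 1 and urothelium 5. In urothelium it was 0 without mesenchyme 2, and 2 without mesenchyme 1 or without both mesenchyme 1 and urothelium 5. Axin2, a widely shared target, overlapped between compartments, at 1184, 959 and 1231 in mesenchyme, against 914, 1080 and 1206 in urothelium (0.07 ± 0.32, adjusted p = 0.928).

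**Figure D4:**
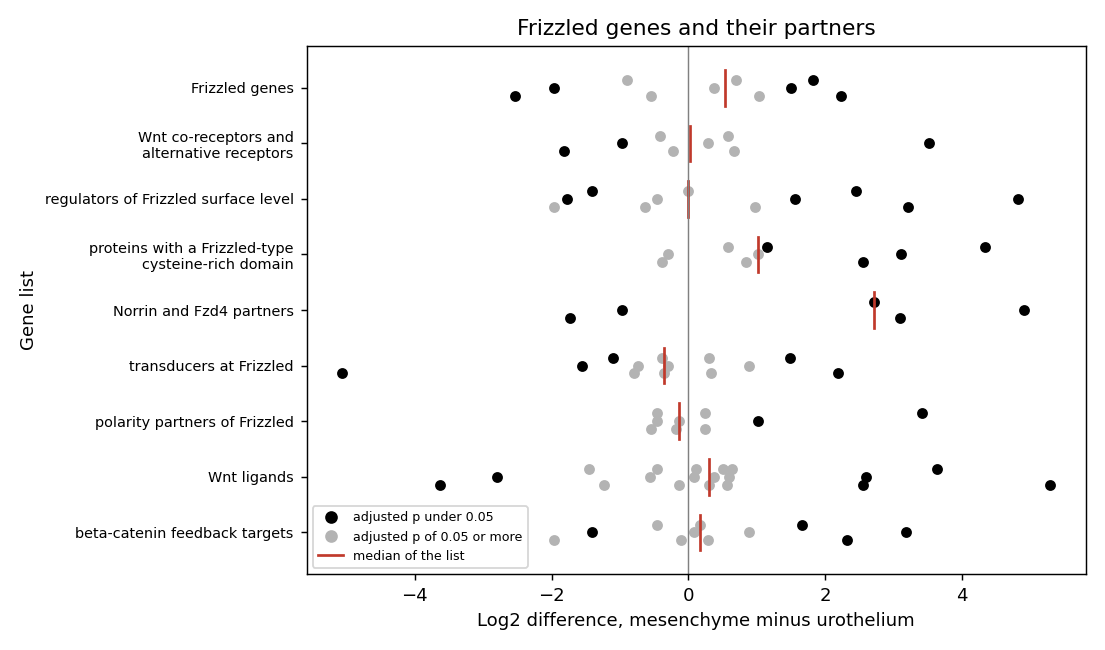
Log2 difference, mesenchyme minus urothelium, of each measured gene of the Frizzled family and of the 8 partner lists. Each point is 1 gene, black where its adjusted p was under 0.05, and the red line is the median of the list. The Frizzled genes lie between −2.54 and 2.23, and 5 partner lists reach beyond 3.41 towards mesenchyme.

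Other genes had array profiles close to those of the 5 Frizzled genes past the test, measured as the root mean square distance between mean-centred log2 signals over the 6 arrays. Such a distance over 6 arrays mostly reflects the size of the compartment difference. The nearest were Tifa (0.06) to Fzd1, Abcg1 (0.09) to Fzd4, Uggt2 (0.20) to Fzd10 and Slc40a1 (0.10) to Fzd6. For Fzd5 the nearest, Gsr, was farther away at 0.26 and did not pass the test (limma adjusted p = 0.0845).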

How the data were processed

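Gene expression was measured on Affymetrix MOE430 arrays in 3 mesenchyme and 3 urothelium samples. The deposited values are intensity on a linear scale, 1 per probe set, and the submitters' processing notes name GCOS. Which of its algorithms ran, and how it was set, is not given in the sources used here. On every array the 2% trimmed mean came to 1500, so arrays were not scaled again. No detection calls were used, so a dim signal is not called absent, and the number of arrays limits the precision.

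Of 45101 probe sets, 34945 had 1 gene symbol in the platform annotation, 932 had several, 9160 had none and 64 were controls. Entrez identifiers matched 34741 of the 34945 to the RefSeq gene table, with 0 symbols changed. The probe set with the highest mean stood for each gene. log2(signal + 45) was computed from the deposited intensity and fitted with limma 3.58.1 in R 4.3.3 (lmFit, eBayes with an intensity trend) over 18193 genes, with Benjamini-Hochberg adjustment and a threshold of 0.05. The fit was tested on simulated data. No batch or date is given, and probe sets of related receptors can cross-hybridise. Related pairs were compared by an exact permutation test in scipy 1.17.1.

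The members, the gene lists and the tests were chosen with earlier results of these data known. The naming rule covered all Frizzled genes with all their probe sets, at most 3 genes of each partner list, those that passed with the largest differences, and the nearest array profiles. Other partner genes named in the results were chosen after their values were seen. Alternatives were other pseudocounts (1 and 179), quantile normalization, median centring, a filter on dim genes, no trend, array weights, other uses of a gene's probe sets and leaving out arrays.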

Additional observations from a re-analysis of the deposited data

How the results depend on the processing

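No paired analysis was possible because the replicate numbers of mesenchyme (1, 2 and 4) and urothelium (5, 7 and 8) do not overlap. Fzd1, Fzd4 and Fzd6 kept their direction and call under all 16 alternatives, and Fzd10 under the 15 that could be computed for it, since it lies below the median signal, as do Fzd8 and Fzd9. Fzd5 lost its call under 8 of 16 and kept its direction, with differences between −2.53 and −1.36. Against 3 Frizzled genes higher in mesenchyme and 2 in urothelium, array weights gave 5 and 4, leaving out mesenchyme 1 and urothelium 5 gave 5 in mesenchyme, and the fit without the intensity trend and that of every probe set by itself each gave 1 in urothelium. With 1 array left out in turn the counts ran from 3 to 4 in mesenchyme and from 1 to 2 in urothelium, and over all genes from 1150 to 1703 and from 652 to 1061. Over all genes array weights gave 3033 and 2074 calls, the filter on dim genes left 991 in mesenchyme, and median centring gave 1708 in urothelium. Fzd8 changed sign with median centring (−0.021), a setting that moves every gene by the same amount. The cause of the other changes was not tested. Dim probe sets, among them those of Fzd9, Fzd10 and Lrp5, have sizes that depend on the pseudocount.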

Other observations

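A transcript whose symbol marks it as opposite to Fzd10, Fzd10os, is no member of the family and was read by probe sets of its own. Its signals were 882, 752 and 829 in mesenchyme, against 383, 223 and 359 in urothelium, so the compartments did not overlap. Over all genes 18.2% had no overlap with mesenchyme higher. The Fzd10os difference of 1.27 ± 0.39 on the log2 scale lay close to the threshold but did not pass (limma adjusted p = 0.0512). Fzd10os was outside the naming rule.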
